A study of Mus musculus with 16 samples.

Results

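RNA polymerase II (Pol II) peaks that lay far from every annotated gene were examined in chromatin immunoprecipitation sequencing (ChIP-seq) of mouse cells with and without Atxn7l3. A distal intergenic peak was an autosomal Pol II peak with its summit at least 10 kb from every GENCODE M21 gene record of any type on GRCm38. There were 3320 such peaks among 104999 autosomal Pol II peaks, and among 107139 Pol II peaks on all chromosomes. Wild-type (WT) mouse embryonic stem cells (mESCs) had 693, Atxn7l3-/- (KO) mESCs 478, WT mouse embryonic fibroblasts (MEFs) 1483 and KO MEFs 666. Where 4 values are given together, they stand in this order of the libraries. The members were selected on the peak calls and summit positions, so their number and strength are given as a description of the lists.

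The Pol II antibody recognised RPB1, the largest Pol II subunit, and a second antibody recognised histone H2B carrying 1 ubiquitin (H2Bub1). WT cells were Atxn7l3+/+ and KO cells Atxn7l3-/-, all of the strain cross DBA/2 x C57BL/6. The mESCs came from blastocysts and grew in 15% foetal calf serum with leukaemia inhibitory factor, 1 µM PD0325901 and 3 µM CH99021. MEFs came from E10.5 embryos without the head and gut and grew in 10% serum, and the study called the KO cells MEF-like and described many of them as round. Each of the 8 groups consisted of 1 library, and without replicates no test between groups was possible. The 95% intervals are exact and cover counting error within a list only. Read depth is unknown, and fewer cells with Pol II at a region and less Pol II per cell cannot be told apart.

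ATXN7L3 is the adaptor of the deubiquitylation module of the transcriptional coactivator SAGA, and the module removes ubiquitin from H2B. H2Bub1 is placed along transcribed gene bodies in step with elongating Pol II. Pol II is also found outside annotated genes, where it transcribes active enhancers into short unstable RNAs, long non-coding RNA genes that an annotation may lack, and stretches downstream of genes. Enhancers differ between cell types more than promoters do, and factors of the AP-1 family (FOS and JUN proteins) are prominent at enhancers of fibroblasts.

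To show what sequence lay under the members, 300 bases around the summit are given for the highest-ranking region of 7 of the 15 patterns of presence (all 4 libraries, both of a cell type, or 1 alone), ranked by the lowest fold among the libraries of the pattern, forward strand, GRCm38, from the RefSeq genome file. Capitals mark every match, on either strand, to 13 motifs. These were the AP-1 motif TGANTCA, the octamer ATGCAAAT, the SOX motif AACAATG, the ESRR motif TCAAGGTCA, the TEAD motif GGAATG, the cyclic AMP response element TGACGTCA, the E-box CATCTG, the RUNX motif TGTGGTT, the GC box GGGCGG, the KLF motif CACCC, the box CCAAT, the box TATAAA and the CTCF core motif by its name. A match describes letters and is not evidence of a bound site. The region with Pol II in all 4 libraries, 39.4 kb upstream of Ptma, had 62.0% GC and no match.
chr1:86487174-86487473: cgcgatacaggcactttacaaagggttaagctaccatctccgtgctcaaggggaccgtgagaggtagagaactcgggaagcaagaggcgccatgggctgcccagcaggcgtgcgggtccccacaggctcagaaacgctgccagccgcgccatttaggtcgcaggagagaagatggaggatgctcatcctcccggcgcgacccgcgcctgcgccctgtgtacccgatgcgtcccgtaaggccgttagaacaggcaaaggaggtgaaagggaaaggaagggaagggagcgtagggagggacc
The region of both mESC libraries without a MEF peak, 23.1 kb upstream of Ranbp17, held a SOX, an E-box and a KLF match.
chr11:33536706-33537005: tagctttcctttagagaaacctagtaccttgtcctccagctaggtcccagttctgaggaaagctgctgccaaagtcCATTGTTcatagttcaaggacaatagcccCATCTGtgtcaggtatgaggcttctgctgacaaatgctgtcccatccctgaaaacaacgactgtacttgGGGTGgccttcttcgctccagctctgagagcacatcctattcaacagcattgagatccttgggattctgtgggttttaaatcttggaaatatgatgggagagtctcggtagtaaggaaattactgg
The region of both MEF libraries without an mESC peak, 13.2 kb upstream of Prrc2b, had 60.3% GC and a CCAAT box.
chr2:32137698-32137997: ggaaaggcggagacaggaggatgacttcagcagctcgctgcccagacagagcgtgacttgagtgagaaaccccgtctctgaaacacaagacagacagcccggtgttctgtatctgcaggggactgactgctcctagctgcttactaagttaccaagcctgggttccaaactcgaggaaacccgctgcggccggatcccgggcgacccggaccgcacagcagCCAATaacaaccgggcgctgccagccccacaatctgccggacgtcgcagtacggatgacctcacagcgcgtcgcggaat
The top region of WT mESCs alone, 24.7 kb upstream of Slc9a8, lay 93.3% in repeat-masked sequence and held an AP-1, a CCAAT and a KLF match.
chr2:167396841-167397140: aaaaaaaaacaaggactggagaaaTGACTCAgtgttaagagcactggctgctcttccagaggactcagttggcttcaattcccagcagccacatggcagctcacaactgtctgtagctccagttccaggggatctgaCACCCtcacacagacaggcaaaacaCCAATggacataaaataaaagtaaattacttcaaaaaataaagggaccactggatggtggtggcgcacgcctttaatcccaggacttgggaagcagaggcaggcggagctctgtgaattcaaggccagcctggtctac
That of KO mESCs alone lay 24.7 kb downstream of H2al2a and held a CCAAT and a KLF match.
chr2:17972105-17972404: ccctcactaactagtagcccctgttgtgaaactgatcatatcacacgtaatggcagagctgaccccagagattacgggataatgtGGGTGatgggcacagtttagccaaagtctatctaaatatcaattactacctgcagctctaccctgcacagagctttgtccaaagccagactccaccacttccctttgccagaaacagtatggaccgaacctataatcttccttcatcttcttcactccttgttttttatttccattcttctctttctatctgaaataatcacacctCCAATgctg
That of WT MEFs alone lay 209 kb upstream of Tgfbr2, a receptor of TGF-beta, and held a TEAD, an E-box and 2 KLF matches.
chr9:116384088-116384387: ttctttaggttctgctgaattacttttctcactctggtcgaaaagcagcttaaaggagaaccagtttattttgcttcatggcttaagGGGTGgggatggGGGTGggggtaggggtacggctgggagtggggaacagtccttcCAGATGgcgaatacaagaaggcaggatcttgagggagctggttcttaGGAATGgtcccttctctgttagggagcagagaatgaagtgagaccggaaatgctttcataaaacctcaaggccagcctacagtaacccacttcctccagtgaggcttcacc
That of KO MEFs alone lay 64.5 kb upstream of Bnc1, which encodes the zinc finger protein basonuclin, and held a RUNX and a KLF match.
chr7:82056686-82056985: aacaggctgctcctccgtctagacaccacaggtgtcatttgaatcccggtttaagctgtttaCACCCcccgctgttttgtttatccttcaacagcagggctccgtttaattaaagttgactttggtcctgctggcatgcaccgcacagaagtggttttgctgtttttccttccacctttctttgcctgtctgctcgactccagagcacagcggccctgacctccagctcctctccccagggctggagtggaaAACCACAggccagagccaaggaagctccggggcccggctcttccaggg

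Distal peaks made up 4.09% (95% interval 3.80 to 4.40), 4.11% (3.76 to 4.49), 3.30% (3.14 to 3.47) and 2.11% (1.96 to 2.27) of the autosomal Pol II peaks in the 4 lists. The KO list of mESCs held 0.690 times as many distal peaks as the WT list, and 0.687 times as many autosomal peaks in all. In MEFs the ratio was 0.449 for distal peaks and 0.703 for all autosomal peaks. The distal ratio was thus close to that of all peaks in mESCs and lower than it in MEFs. When each pair of lists was reduced to equal numbers of Pol II peaks, the distal ratio was 1.09 in mESCs and 0.607 in MEFs, so the ratio turned to above 1 in mESCs and stayed below 1 in MEFs.

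Median fold enrichment, the peak summit over its local background, was 3.58 (95% interval 3.50 to 3.66), 3.75 (3.75 to 3.94), 3.87 (3.78 to 3.94) and 3.87 (3.73 to 4.03) for distal peaks of the 4 libraries. Intergenic peaks nearer than 10 kb had medians of 3.61, 3.92, 3.77 and 3.74, and promoter peaks had 4.28, 4.46, 12.7 and 10.9. Distal peaks therefore had the strength of other intergenic peaks, and in MEFs they lay far below promoters. Single distal peaks were much stronger, since 7, 3, 71 and 39 peaks reached 10-fold. They were narrow, with median widths of 452, 422, 548 and 536 bp, and 3.75% to 5.20% of them were at least 2000 bp wide. On either side of the limit, the peaks 9 to 10 kb from a gene (78, 37, 160 and 90 in the 4 libraries) had median folds of 3.44, 3.92, 3.81 and 3.66, and those 10 to 11 kb away (53, 38, 118 and 81) had 3.66, 3.71, 3.62 and 3.87.

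**Figure D1:**
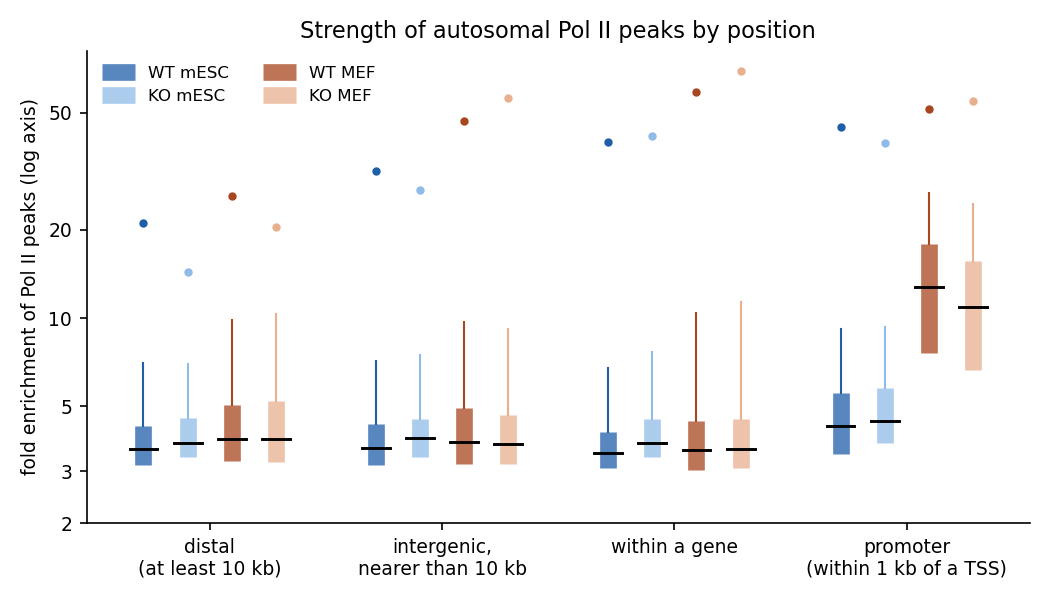
Fold enrichment of autosomal Pol II peaks (log axis) by position and library, with bars for the quartiles, black marks for the median, thin lines up to the 95th percentile and points for the maximum. Distal peaks have medians between 3.58 and 3.87, and promoter peaks of WT MEFs a median of 12.7.

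Distal peaks crowded toward genes within the distal sequence itself. The positions open to a distal summit made up 820.7 Mb, 33.3% of the autosomes. In the 204.8 Mb that lay 10 to 20 kb from a gene, there were 1.92, 1.31, 3.41 and 1.85 distal peaks per Mb in the 4 libraries. At 50 to 100 kb the densities were 0.329, 0.124, 0.885 and 0.221 per Mb, and at 100 to 200 kb they were 0.0552, 0.0828, 0.451 and 0.120 per Mb. No member lay beyond 500 kb, and only MEF libraries had members beyond 200 kb (5 in WT and 3 in KO). The median distance from the nearest gene record was 18.2 kb and 18.3 kb in WT and KO mESCs, 21.1 kb (95% interval 20.1 to 22.2) in WT MEFs and 17.6 kb (16.0 to 18.9) in KO MEFs. Members of WT MEFs were thus the more remote ones. Members lay upstream of the nearest record in 50.6% (46.9 to 54.4) and 50.6% (46.05 to 55.2) of cases in WT and KO mESCs, and in 47.0% (44.4 to 49.6) and 46.4% (42.6 to 50.3) in WT and KO MEFs. Where that record was protein-coding, the shares were 55.1% (49.6 to 60.5), 57.9% (51.6 to 64.1), 45.0% (41.1 to 49.1) and 46.7% (41.1 to 52.4). These intervals count each member as independent. Many members lay close to another, so the intervals are too narrow, and no preferred side is read from them.

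**Figure D2:**
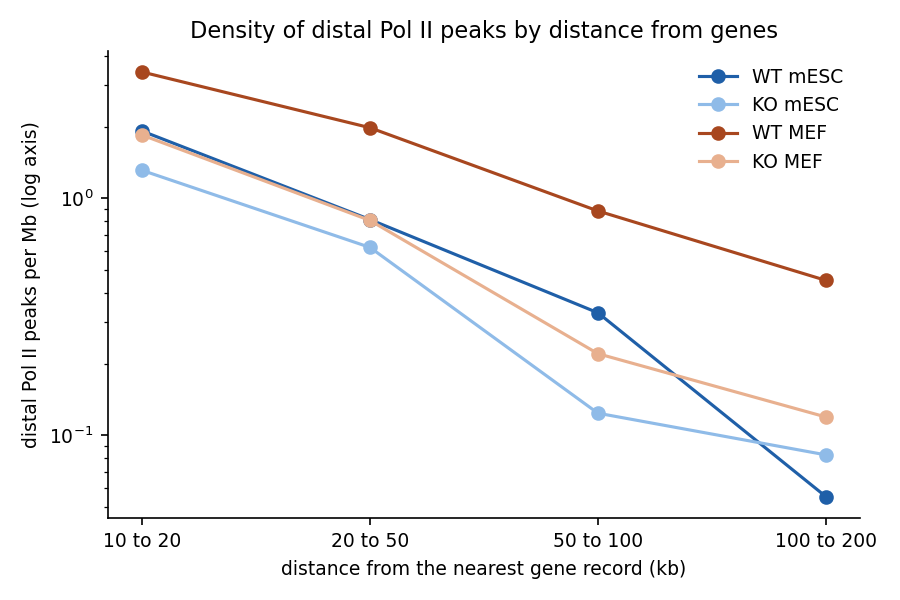
Distal Pol II peaks per Mb of sequence (log axis) against distance from the nearest gene record in kb, for each library. Density falls from 3.41 to 0.451 per Mb in WT MEFs and from 1.92 to 0.0552 per Mb in WT mESCs between the nearest and the farthest bin drawn.

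Members came in groups. A second member lay within 20 kb of 57.0% (53.2 to 60.7) of the WT and 60.5% (55.9 to 64.9) of the KO members in mESCs, and of 50.9% (48.3 to 53.5) and 48.8% (44.9 to 52.7) in MEFs. The largest chain in mESCs lay near Sik1, a salt-inducible kinase gene, with 10 peaks over 31.0 kb in WT and 13 over 27.7 kb in KO. The largest chain in MEFs lay near Fam198b, with 11 peaks over 22.0 kb in WT and 9 over 8.84 kb in KO. Members of one chain share their surroundings and are not independent sites.

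Chromosome 11 held the densest distal peaks in mESCs. It had 92 of 693 members in WT (13.3%) and 73 of 478 in KO (15.3%) on 4.23% of the distal sequence, or 2.652 and 2.104 per Mb. All autosomal Pol II peaks of these lists had a like share there, 12.8% in WT and 12.6% in KO. In MEFs chromosome 11 held 6.61% of the members in either genotype, beside 8.56% and 8.70% of all autosomal peaks. Chromosome 11 was also the densest in WT MEFs, with 2.82 members per Mb.

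Overlapping distal peaks of the 4 lists joined into 2546 regions. Of these, 794 (31.2%) had Pol II peaks only in mESC libraries, 1653 (64.9%) only in MEF libraries and 99 (3.89%) in both cell types. A single library held the peak at 1970 regions (77.4%), namely WT MEFs at 1085, WT mESCs at 422, KO MEFs at 264 and KO mESCs at 199. Both genotypes of MEFs and no mESC library had Pol II at 304 regions, both genotypes of mESCs and no MEF library at 173, and all 4 libraries at 27. The lists differ in length, from 11632 autosomal peaks in KO mESCs to 44890 in WT MEFs. No shares of joined regions are given for all autosomal peaks, so these counts do not show what is particular to distal ones. Shares per peak, beside those of all peaks, follow.

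**Figure D3:**
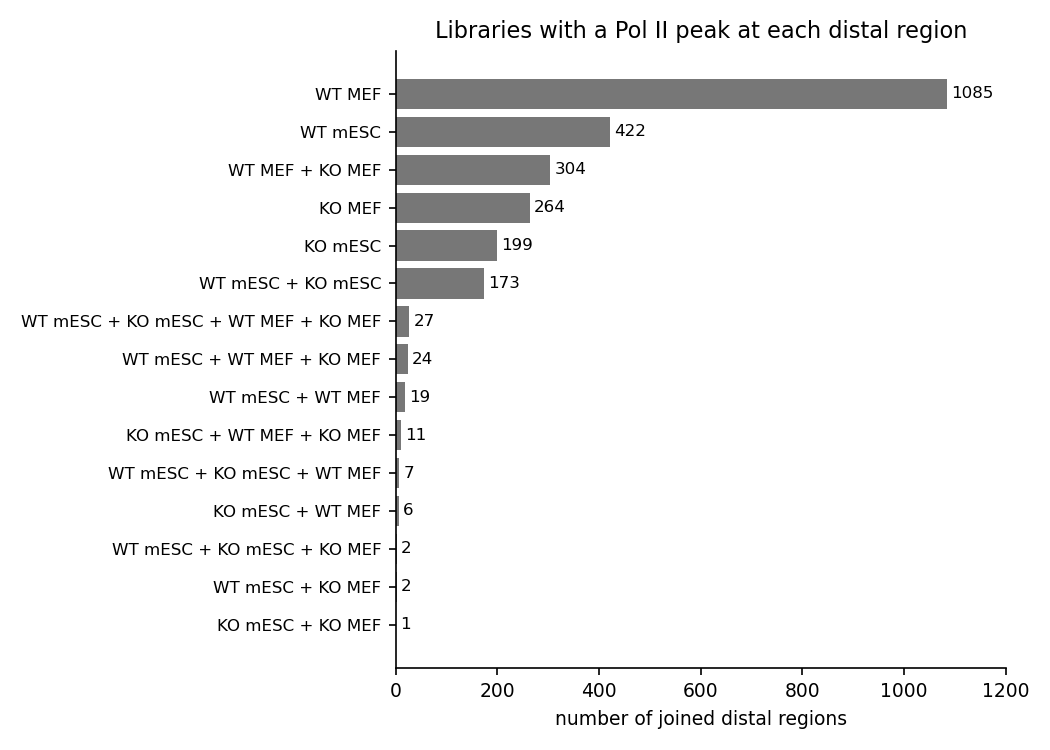
Number of joined distal regions (bars) for each combination of libraries with a Pol II peak at the region. WT MEFs alone account for 1085 of 2546 regions and all 4 libraries for 27.

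Sharing between genotypes asks whether the other genotype of the same cells had any Pol II peak at the member. In WT mESCs 32.03% (95% interval 28.6 to 35.6) of the members overlapped a KO peak, where 47.4% of all autosomal peaks did. In KO mESCs 54.0% (49.4 to 58.5) overlapped a WT peak, where 73.9% of all did. In WT MEFs the shares were 24.5% (22.4 to 26.8) of members and 45.2% of all, and in KO MEFs 59.6% (55.8 to 63.4) of members and 76.4% of all. Distal peaks were shared less than peaks at large in each library. Peaks within genes were shared at 29.9%, 62.4%, 31.5% and 63.7% and intergenic peaks nearer than 10 kb at 30.4%, 71.9%, 35.2% and 80.1%, so the members of WT mESCs were close to these classes and those of the other 3 libraries below them.

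The strength of a peak went with its being shared. Of members of at least 6-fold, 79.3% (66.7 to 88.8), 84.8% (71.1 to 93.7), 65.5% (59.2 to 71.3) and 79.8% (71.3 to 86.8) were shared between genotypes, and of other autosomal peaks of that strength 97.0%, 98.2%, 92.7% and 97.3%. Of members of 3 to 4-fold, 21.7%, 41.6%, 10.9% and 53.8% were shared. In each of 4 classes of fold, in every library, the percentage shared was lower for distal than for other peaks. From members without a partner, the nearest Pol II peak of the other genotype lay a median of 24.2, 22.6, 44.6 and 22.3 kb away, and within 5 kb for 98 of 471, 52 of 220, 138 of 1119 and 54 of 269.

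Sharing between cell types was far lower. Of the members, 11.7% (9.39 to 14.3) of WT mESCs overlapped a WT MEF peak, where 67.0% of all autosomal peaks did, and 8.79% (6.41 to 11.7) of KO mESCs overlapped a KO MEF peak, where 70.9% of all did. From the MEF side, 5.33% (4.24 to 6.60) of WT members overlapped a WT mESC peak against 21.7% of all, and 5.86% (4.20 to 7.92) of KO members a KO mESC peak against 23.6% of all. With protein-coding records alone as genes, these 4 shares were 19.65%, 19.6%, 8.33% and 10.7%. When the other list had to cover at least 50% of the distal peak, the MEF shares were 2.63% in WT and 3.15% in KO. Promoter peaks stood at the other end, with 93.3% and 93.9% of those of WT and KO mESCs overlapping a MEF peak.

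**Figure D4:**
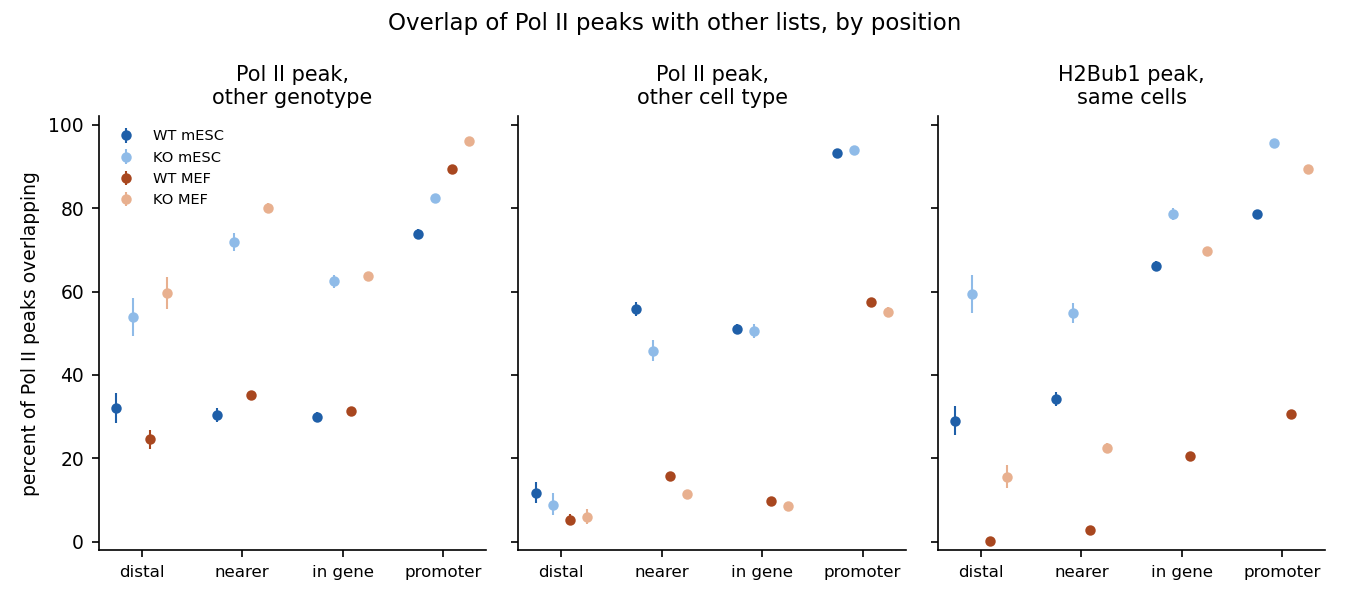
Percent of autosomal Pol II peaks that overlap a Pol II peak of the other genotype (left), a Pol II peak of the other cell type (middle) or an H2Bub1 peak of the same cells (right), by position, with exact 95% intervals. Distal peaks have the lowest share in each library in the middle panel (5.33% to 11.7%) and promoter peaks the highest.

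Where a WT member overlapped a KO peak, the folds were compared at the same place. In mESCs KO over WT fold had a median log2 value of 0.02 (-0.09 to 0.11) over 222 members, beside 0.01 over all 8016 shared autosomal peaks, and it was -0.09 (-0.15 to -0.0085) at equal numbers of peaks in the lists. In MEFs it was -0.29 (-0.38 to -0.20) over 364 members, beside -0.20 (-0.21 to -0.19) over all 20269. It was -0.37 (-0.47 to -0.29) at equal numbers of peaks, and -0.15 (-0.22 to -0.066) when 50% of the distal peak had to be covered. Shared members thus had a lower fold in KO MEFs, 4.36 against 5.70 in WT, as shared peaks at large did (6.37 against 7.68). KO was at least 2-fold lower at 63 of the 364 shared members of MEFs and at least 2-fold higher at 6. Among all 20269 shared autosomal peaks of MEFs, it was so lower at 1558 and so higher at 786. In mESCs it was lower at 6 and higher at 8 of 222 shared members, and at 157 and 178 of all 8016 shared peaks. The ratios compare 2 values within the lists, each over its own background.

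H2Bub1 overlapped the members of mESCs more often than those of MEFs. In WT mESCs 29.0% (25.7 to 32.5) of the members overlapped an H2Bub1 peak of the same cells, where 63.4% of all autosomal Pol II peaks did. In KO mESCs it was 59.4% (54.9 to 63.8), where 83.3% of all did. In WT MEFs 2 of 1483 members, 0.135% (0.0163 to 0.486), had H2Bub1, where 18.7% of all did, and in KO MEFs 103 of 666, 15.5% (12.8 to 18.4), where 67.0% of all did. The share was higher in KO than in WT in both cell types, and in each library lower for distal peaks than for all peaks. Intergenic peaks nearer than 10 kb had shares of 34.3% (32.7 to 36.0), 54.9% (52.4 to 57.3), 2.81% (2.48 to 3.17) and 22.5% (21.4 to 23.7), so that distal shares were lower in WT mESCs and both MEF lists, and the intervals overlapped in KO mESCs. The H2Bub1 lists themselves covered 0.107%, 0.344%, 0.00194% and 0.0444% of the distal sequence, in the same order as the shares of members, and the part of this in the shares was not tested. With a stricter threshold in every list (-log10 q of at least 3), the shares were 7.13%, 26.9%, 0% (up to 0.262%) and 5.31%, in that order again. With protein-coding records alone as genes, they were 34.1%, 64.5%, 2.33% (1.84 to 2.91) and 26.6% (24.4 to 28.8). When H2Bub1 had to cover at least 50% of the distal peak, they were 20.2%, 50.2%, 0.0674% and 9.46%.

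The genotypes could also be compared at fixed places. Of the 693 members of WT mESCs, 201 overlapped a WT H2Bub1 peak and 323 (46.6%, 42.8 to 50.4) a KO H2Bub1 peak. Of the 1483 members of WT MEFs, 2 overlapped a WT and 83 (5.60%, 4.48 to 6.89) a KO H2Bub1 peak. All autosomal Pol II peaks also overlapped KO H2Bub1 more often than WT H2Bub1. Their shares were 72.5% against 63.4% in WT mESCs and 53.7% against 18.7% in WT MEFs. At the 173 regions with Pol II in both mESC libraries and no MEF library, WT H2Bub1 was called at 43.4% (35.9 to 51.1) and KO H2Bub1 at 68.2% (60.7 to 75.1). At the 304 regions of both MEF libraries and no mESC library, it was called at 0.329% and 16.1% (12.2 to 20.7). Where Pol II was called in WT alone, at 422 regions of mESCs, KO H2Bub1 was called at 35.5% (31.0 to 40.3), above the 22.7% (18.8 to 27.0) of WT. The KO H2Bub1 lists also covered more of the distal sequence, 0.344% against 0.107% in mESCs and 0.0444% against 0.00194% in MEFs. How much of the differences at fixed places comes from this was not tested.

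Nearly all of these H2Bub1 peaks stood clear of gene records, which the choice of members largely fixed in advance. Member summits lay at least 10 kb from every gene record, and the median H2Bub1 peak there was far narrower than that. None of the H2Bub1 peaks at the 201 members of WT mESCs touched a gene record, and those at 8 of 284 members in KO mESCs and 6 of 103 in KO MEFs did. Their median width was 1228 bp in WT mESCs and 3368 bp in KO mESCs, beside 957 and 1357 bp for all autosomal H2Bub1 peaks of these lists. In KO MEFs it was 1915 bp, beside 2788 bp for all. Members with H2Bub1 had a Pol II fold of 3.87 (3.73 to 4.14) against 3.44 (3.43 to 3.58) without it in WT mESCs, and 5.09 (4.42 to 5.46) against 3.74 (3.67 to 3.91) in KO MEFs. In KO mESCs the intervals overlapped, with 3.93 (3.75 to 4.11) against 3.74 (3.55 to 3.80). At 3 distances from genes, 29.95%, 26.7% and 31.3% of the WT mESC members at 10 to 20, 20 to 50 and 50 kb or more had H2Bub1, and 58.0%, 62.1% and 56.2% of those of KO mESCs. In KO MEFs the shares were 15.6%, 16.5% and 10.53% (3.96 to 21.5).

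Among the regions with Pol II in all 4 libraries, the first was chr1:86486121-86489354, upstream of Ptma, which encodes prothymosin alpha. Its folds were 8.37, 7.85, 23.1 and 16.2. The second, chr15:81521860-81524512, lay downstream of Rbx1, a ubiquitin ligase subunit, with 5.98, 6.57, 20.3 and 14.3. The third, chr1:86440068-86444322, lay near Tex44 in the same stretch of chromosome 1 as the first, with 5.68, 5.07, 17.1 and 15.3. Both chromosome 1 regions had H2Bub1 in all lists but WT MEFs, and the chromosome 15 region had none in any list.

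The mESC pattern was led by chr11:33534576-33538848 upstream of Ranbp17, at 12.1-fold in WT and 13.0-fold in KO. Next came chr4:55475986-55481715, 51.9 kb downstream of Klf4, a pluripotency transcription factor, at 11.3-fold in WT and 9.81-fold in KO. The summit of the WT peak there lay within 10 kb of a gene record, so that only the KO peak counts as a member. The third was chr13:113724500-113727026, 61.5 kb upstream of Hspb3, at 10.2 and 9.66-fold. The first 2 regions had H2Bub1 in both mESC lists and the Hspb3 region in neither.

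The MEF pattern was led by chr2:32137078-32138223 upstream of Prrc2b, at 22.6-fold in WT and 15.2-fold in KO. The second, chr4:55650072-55653155, again had Klf4 as its nearest protein-coding gene but lay on the other side, 119 kb upstream, at 17.7 and 14.8-fold. Klf4 thus had a strong distal region on either side, one called only in mESCs and one only in MEFs, while its promoter had Pol II in all 4 libraries (7.05, 11.8, 26.8 and 25.8-fold). The third, chr11:120315321-120317761, lay 32.2 kb downstream of Actg1, the gamma actin gene, at 20.6 and 13.9-fold.

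Among regions of 1 library, the top 3 of WT mESCs alone had 11.3-fold near Slc9a8, 9.52-fold 12.5 kb upstream of Dyrk1a and 8.54-fold near 3100002H09Rik. In KO mESCs alone they had 7.46-fold near H2al2a, 7.10-fold near Herc3 and 6.95-fold 35.2 kb upstream of Asns, the asparagine synthetase gene. In WT MEFs alone they had 16.4-fold near Tgfbr2, 13.7-fold at chr1:163360439-163363122 near Gorab and 12.4-fold 124 kb downstream of Cyp26a1. In KO MEFs alone they had 16.2-fold near Bnc1, 14.6-fold 24.2 kb upstream of Kcnh1 and 11.8-fold near Nfe2l3. The strongest single members, chosen after their values were seen, were 21.0-fold in WT mESCs at chr6:124475956-124482438 near C1rl (6.92 in KO) and 26.0-fold in WT MEFs at chr9:67632277-67635238 (13.2 in KO MEFs and 4.16 in WT mESCs), which RefSeq places inside Tln2.

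Some members lay in genes of another annotation. RefSeq gene records of the same build held the summits of 15.4% (12.8 to 18.3) of the members in WT and 15.7% (12.5 to 19.3) in KO mESCs, and of 19.02% (17.1 to 21.1) and 20.1% (17.1 to 23.4) in WT and KO MEFs, beside 7.68% of the distal sequence. A summit within 1 kb of a RefSeq start was found for 3.90%, 4.18%, 6.00% and 9.61% of the members, beside 0.709% of the distal sequence. Long non-coding RNA records overlapped 94, 75, 272 and 112 members and protein-coding ones 17, 6, 32 and 34. At regions with Pol II in both cell types, 17.2% (10.3 to 26.1) lay at a RefSeq start, beside 2.64% (1.64 to 4.01) of mESC-only and 5.32% (4.29 to 6.52) of MEF-only regions. Members inside and outside RefSeq records had H2Bub1 at like shares in mESCs (32.7% and 28.3% in WT, 61.3% and 59.1% in KO), and at 24.6% (17.6 to 32.8) and 13.2% (10.4 to 16.3) in KO MEFs.

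A few strong members lay on transfer RNA (tRNA) genes, which are transcribed by RNA polymerase III and which the GENCODE gene records used here did not cover. RefSeq tRNA records overlapped 1 member in each mESC list, 6 in WT MEFs and 4 in KO MEFs. By fold, the first was chr1:74816642-74817764 over the tRNA gene n-TGgcc3, 25.6 kb from the nearest protein-coding start (Wnt10a), with 23.2-fold in WT MEFs and 16.4-fold in KO MEFs. A WT mESC peak of 3.30-fold overlapped this MEF peak but not the tRNA record, and KO mESCs had no peak there. The member over n-TEttc6, nearest to Nufip1, had a peak in all 4 libraries, at 3.75, 3.73, 11.4 and 3.35-fold. The median fold of the 6 WT MEF members on tRNA genes was 9.43.

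The base composition of members lay between that of promoters and that of the distal sequence. The mean GC content of the 300 bases around the summit was 52.5%, 52.1%, 50.9% and 52.4%, beside 40.2% in all distal windows of that length and 66.2% to 68.3% at promoter peaks. A ratio of observed to expected CpG of at least 0.6, which is 1 of the usual criteria of a CpG island, was met by 8.37%, 8.996%, 9.57% and 12.2% of the members and by 83.1% to 90.5% of promoter peaks. Regions with Pol II in both cell types were the exception, with 42.4% (32.6 to 52.8), beside 4.28% of mESC-only and 6.17% of MEF-only regions. Repeat-masked bases made up 20.6%, 21.4%, 12.0% and 13.1% of the windows, below the 39.3% of distal sequence at large. The 32 bases at the summit occurred more than once in the genome for 15, 13, 19 and 10 members, and without them the summary values that were recomputed stayed within their intervals, or within 1.5 times for the KO over WT ratios of counts.

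AP-1 matches were more frequent at the members of WT MEFs than at those of mESCs. The motif was matched at 20.3% (18.3 to 22.4) of the members of WT MEFs and 15.8% (13.1 to 18.8) of KO MEFs, beside 10.2% (8.09 to 12.8) of WT and 11.9% (9.16 to 15.2) of KO mESCs and 8.99% of all distal windows. The intervals of KO MEFs and KO mESCs overlapped. Intergenic MEF peaks nearer than 10 kb had it at 11.3% (WT) and 12.1% (KO), and MEF promoter peaks at 3.17% and 3.14%. By pattern, 20.6% (18.2 to 23.1) of the regions of WT MEFs alone, 19.7% (15.4 to 24.7) of those of both MEF libraries and 13.3% (9.41 to 17.9) of those of KO MEFs alone had a match. Regions of mESCs only had one at 10.7% (8.64 to 13.1).

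The GC box was matched at 13.7% to 17.9% of the members of the 4 libraries, beside 1.85% of distal windows and 67.5% to 74.0% of promoter peaks, and the KLF motif at 55.0% to 62.1%, beside 34.9% of distal windows. Both are rich in G and C, as the members were. The CTCF core was matched at 6.07% to 7.51%, beside 2.23% of distal windows and 13.9% to 15.5% of promoter peaks. Intergenic peaks nearer than 10 kb had the CTCF core at 7.18% to 8.14%, the KLF motif at 54.0% to 63.35% and the GC box at 8.44% to 16.4%. The CTCF and KLF shares were thus not particular to distal peaks. The ESRR motif, of a factor family active in mESCs, was matched at 1.44% (0.694 to 2.64) of WT and 1.26% (0.462 to 2.71) of KO mESC members, beside 0.532% of distal windows and 0.539% of WT MEF members. The motifs of the pluripotency factors OCT4 and SOX2, the octamer and SOX motifs, were matched at 1.01% and 4.04% of WT mESC members, below the 3.11% and 6.60% of distal windows. TATA boxes were also rarer at members (8.71% to 10.45%) than in distal windows (30.3%), which are richer in A and T. The box CCAAT was matched at 26.6% to 35.4% beside 43.96%, and the TEAD motif at 18.2% to 20.1% beside 16.2%. The E-box was matched at 20.9% to 25.6% beside 21.6%, the RUNX motif at 5.92% to 7.55% beside 6.64% and the cyclic AMP response element at 0.0674% to 0.837% (1 to 4 members a library) beside 0.138%.

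**Figure D5:**
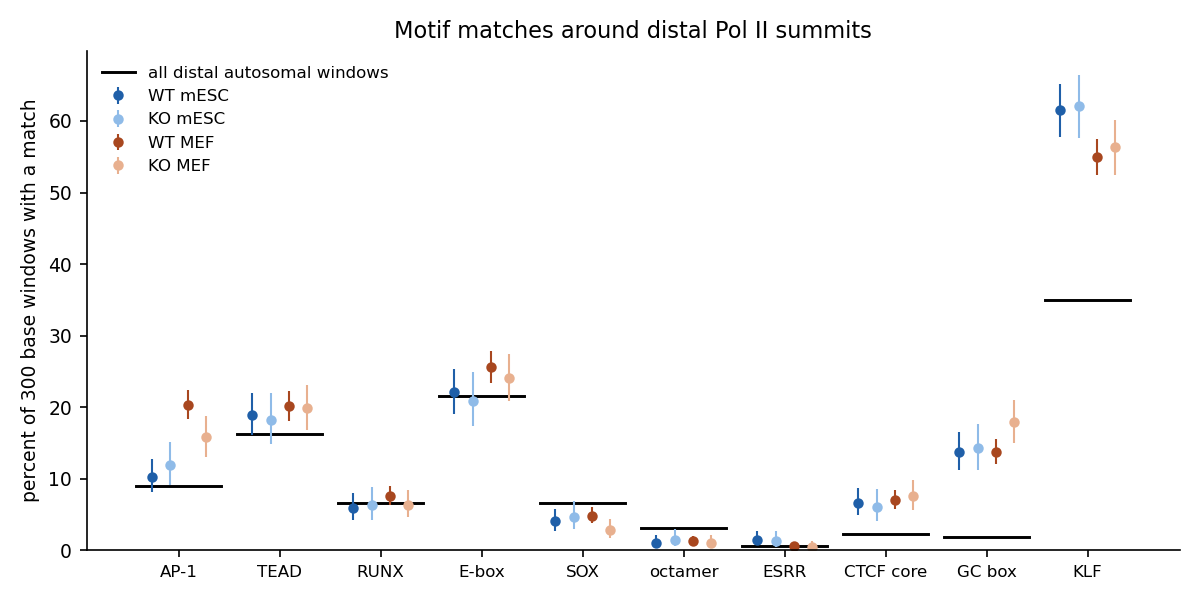
Percent of 300-base windows around distal Pol II summits with a match to each motif (points, exact 95% intervals), beside all distal autosomal windows (black lines). AP-1 stands at 20.3% in WT MEFs against 8.99% of all distal windows.

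The nearest protein-coding gene of a member usually had Pol II at its own promoter. A peak within 1 kb of its transcription start site (TSS) was called for the nearest gene of 57.3% (53.5 to 61.0) of the members in WT mESCs, where 35.3% of all autosomal protein-coding genes had one, and of 58.6% (54.0 to 63.0) in KO mESCs, where 32.1% had one. In MEFs it was 70.7% (68.4 to 73.0) in WT, where 55.3% of all genes had one, and 72.4% (68.8 to 75.7) in KO, where 52.3% had one. Counted by gene, 226 of 404 nearest genes of WT mESCs and 612 of 878 of WT MEFs had promoter Pol II. The median distance to that TSS was 34.9 kb (31.8 to 37.0), 34.1 kb (30.2 to 36.5), 55.7 kb (52.3 to 59.7) and 44.5 kb (40.8 to 47.8). H2Bub1 was called over the nearest gene of 81.5%, 82.6%, 55.9% and 77.6% of the members, beside 55.7%, 62.1%, 31.6% and 54.3% of all autosomal protein-coding genes.

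Several genes were nearest to many regions. In mESCs these were Nkx1-1 and Sik1 with 12 regions each, AU018091 with 9, and H2al2a and Slc44a1 with 8 each. The regions near Nkx1-1, over chr5:33467445-33529566, had peaks of WT mESCs at 12 of 12 (2.86 to 5.56-fold) and of KO mESCs at 1 (3.75-fold), while KO H2Bub1 peaks overlapped 12 and WT ones 10. The opposite was seen near H2al2a, over chr2:17970953-17980694, where 8 regions were called in KO mESCs (3.05 to 7.46-fold) and none in WT, with KO H2Bub1 at 6 and WT H2Bub1 at none. Near Sik1, 8 regions had WT and 11 had KO peaks, 7 of them both, and H2Bub1 overlapped 10 in WT and 12 in KO. None of Nkx1-1, AU018091 and H2al2a had a promoter peak in mESCs.

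In MEFs the genes nearest to most regions were Rasgrp1 with 16, Fam198b and Irf2bp2 with 11 each, Col5a1 with 9 and Ctnnd1 with 8, level with Gm26897 and Klf6. The 16 regions of Rasgrp1 lay far from it, 116.8 to 368.8 kb from its TSS over chr2:117459656-117711858. All were called in WT MEFs (2.72 to 4.84-fold) and none in KO MEFs, and no H2Bub1 peak of either MEF list lay on them. RefSeq has the long non-coding RNA gene Gm32210 in this stretch. Irf2bp2 had 11 regions in WT and 4 in KO, Col5a1 9 and 2, Ctnnd1 8 and 2, and Fam198b 10 and 5.

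Members within 100 kb of the TSS were counted for lists of genes, where one member can count for several genes. Of all autosomal protein-coding genes with distal sequence in that reach, 6.26% had a member in WT and 4.47% in KO mESCs, and 10.7% and 6.54% in WT and KO MEFs. Of the 18 fibroblast matrix and contractile genes with such sequence, 10 had one in WT MEFs, 7 in KO MEFs, 1 in WT mESCs and none in KO mESCs. These genes had more distal sequence around them than the average gene, 54.4 kb against 35.3 kb. Per Mb of it they had 25.5 members in WT MEFs and 13.3 in KO MEFs, beside 4.78 and 2.74 around all genes. Promoter Pol II of the listed genes, with or without a member, mostly followed the labelled cell types. Of 22 fibroblast genes found on autosomes, 21 had a promoter peak in WT MEFs, 19 in KO MEFs, 5 in WT and 3 in KO mESCs, and Postn and Col6a1 had one in WT but not in KO MEFs. Of 23 mesenchymal transcription factor genes, 20 had one in WT MEFs (median 11.65-fold) and 14 in KO MEFs (7.07-fold), and 4 and 3 in WT and KO mESCs. Of 23 pluripotency genes, 17 and 16 had one in WT and KO mESCs, and 4 and 7 in WT and KO MEFs (Klf2, Klf4, Klf5 and Tbx3 in all 4 lists). Of 19 epithelial genes, none had one in WT MEFs and 5 did in KO MEFs (Krt7, Msln, Upk1b, Upk3b and Wt1, which are known from mesothelium), with a median of 11.6-fold, and their part in the differences between MEF lists was not tested.

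Values of single members near listed genes were chosen for the text after they were seen. Most members of the fibroblast list had a lower fold or no peak in KO MEFs, and those of Vim and Sparc did not all do so. The same held for most WT MEF members at large, so it is not particular to this list. Of all 1483 WT MEF members, 1119 had no KO peak, and KO was higher at 115 of the 364 shared ones. Upstream of Col1a1, which encodes the main chain of type I collagen, the members at 62.1 and 54.3 kb had 17.6 and 21.8-fold in WT MEFs, and KO peaks there reached 5.58 and 4.72-fold. Upstream of Col1a2, which encodes the partner chain, 6 members of WT MEFs had 3.59 to 13.0-fold, and KO peaks met 2 of them, at 4.61 and 2.78-fold. Upstream of Col5a1, 8 members of WT MEFs had 3.23 to 9.83-fold, and KO peaks met 2, at 3.01 and 5.61-fold. Promoter Pol II of these genes was also lower in KO, 23.9 against 38.3-fold at Col1a1, 19.4 against 43.3-fold at Col1a2 and 13.3 against 25.1-fold at Col5a1. Downstream of Col3a1, 3 members of KO MEFs (4.71 to 5.65-fold) lay under a single WT peak of 22.2-fold whose summit was not distal, so a count of members there does not measure a gain. The members 16.3 to 16.7 kb upstream of Vim, which encodes the filament protein vimentin, had 6.58-fold in WT and 6.85-fold in KO MEFs, and a second one of WT MEFs (3.35-fold) had no KO peak. Sparc, which encodes a matrix glycoprotein, had a member 10.01 kb upstream in KO MEFs (7.34-fold) and no peak there in WT. At Ccn1 the member 53.8 kb upstream had 13.1-fold in WT and 5.25-fold in KO MEFs. Members of WT MEFs near Acta2 (6.35-fold), Col5a2 (4.92-fold), Col6a2 (6.90-fold) and Postn (3.50-fold) had no KO peak.

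Around mesenchymal transcription factor genes, 3 of 16 had a member in WT MEFs and 2 in KO MEFs. Prrx1, a homeobox gene of limb and fibroblast mesenchyme, had 4 members 44.7 to 48.3 kb upstream in WT MEFs (3.35 to 13.7-fold) and no peak at any of them in KO MEFs, and its promoter stood at 18.5-fold in WT and 5.84-fold in KO. The strongest of these 4 is the region listed near Gorab. Tcf21, a factor of epicardial and visceral mesenchyme, was the reverse. It had 6 members 23.4 to 97.8 kb upstream in KO MEFs (2.92 to 6.01-fold), none of them with a peak in another library, and a promoter peak in KO MEFs (18.2-fold) alone. Prrx2 had members in all 4 libraries (4, 4, 6 and 4), the highest at 10.7-fold in WT MEFs and 7.28-fold in KO MEFs, but 1700001O22Rik was the nearest gene to each of them (19.01 to 59.5 kb, against 50.3 to 90.8 kb to Prrx2). Meox1 had 3 members in WT MEFs, 1 in WT mESCs and none in either KO list, and all but 1 in WT MEFs were nearer to Etv4.

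AP-1 and immediate early genes had members in MEFs at 5 of 9 genes in WT and 4 in KO, and in mESCs at 2 of 9 in each genotype. The MEF shares were 55.6% (21.2 to 86.3) and 44.4% (13.7 to 78.8), beside 10.7% and 6.54% of all genes. In each mESC list the share was 22.2% (2.81 to 60.0), beside 6.26% and 4.47%. The listed genes had 53.6 kb of distal sequence on average, against 35.25 kb. Per Mb of it they had 24.9 and 14.5 members in WT and KO MEFs, beside 4.78 and 2.74 around all genes. Of the 5 in WT MEFs, Fos and Fosl2 encode AP-1 subunits, and Klf6, Egr1 and Ier3 are other immediate early genes. Klf6 had 5 members in WT MEFs and 3 in KO MEFs, all upstream, and the WT and KO folds at the shared ones were 4.53 and 4.15, 5.55 and 3.11, and 6.04 and 5.84. Fos, which encodes an AP-1 subunit, had a pair of members 18.1 to 18.8 kb upstream in both MEF lists, where KO had the higher folds (4.11 and 5.48 against 2.96 and 3.83). Another member of Fos in WT MEFs, 13.6 kb downstream (3.01-fold), had no KO peak. Fosl2 had 2 members in WT and 1 in KO MEFs, all nearer to Plb1, and Egr1 had 1 in each.

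Of 20 pluripotency genes with distal sequence, 7 had a member of WT mESCs (35.0%, 15.4 to 59.2) and 2 one of KO mESCs, beside 2 in WT MEFs and none in KO MEFs. Of all genes, 6.26% and 4.47% had one in WT and KO mESCs, and 10.7% and 6.54% in WT and KO MEFs. The listed genes had more distal sequence in reach, 50.9 kb against 35.25 kb. Per Mb of it they had 8.85 members in WT mESCs, beside 3.17 around all genes. In KO mESCs they had 1.97 per Mb, beside 2.32. The WT members were weak, such as 3.54 and 3.596-fold upstream of Klf2 (nearer to Ap1m1), 3.76-fold 44.5 kb upstream of Nanog and 2.82 and 3.71-fold downstream of Prdm14. The Klf2 member 50.7 kb upstream had a KO peak (3.41-fold), and the Nanog and Prdm14 members had none. The epithelial list had members at 5 of 15 genes in WT MEFs and 3 in KO MEFs, where Krt8 and Krt18 share their members and some lie nearer to Krt78, and 1 of 15 in each mESC list (Grhl2). The primitive endoderm list had 1 of 10 in each MEF list (Cubn) and none of 10 in either mESC list. The members of Cubn, 65.4 to 66.8 kb from it, are those counted for the fibroblast gene Vim, 15.3 to 16.7 kb away, and Trdmt1 lies nearer still. Likewise Nanog and Dppa3 share 1 member, nearer to Dppa3, among the 7 genes of WT mESCs, and Col6a1 and Col6a2 share 1 among the 10 fibroblast genes of WT MEFs.

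Among the enzymes of H2B ubiquitylation and their partners, 7 genes had distal sequence in reach. Atxn7l3 itself had 2 members in WT mESCs, 34.3 and 35.3 kb upstream (3.94 and 3.21-fold), and none in the other libraries, and Ubtf was the nearest gene to both (11.2 and 12.2 kb). Its promoter had a Pol II peak in every library (3.61, 3.71, 20.9 and 23.4-fold). The deleted segment begins after the first exon, so this peak does not check the genotype. Usp22, the protease of the module, had 1 member in WT mESCs (5.54-fold) at 16.8 kb, where Aldh3a1 lay at 15.7 kb, and no peak there in KO. Rnf40, a subunit of the H2B ubiquitin ligase, had a member 48.5 kb downstream in both MEF lists, at 3.70-fold in WT and 4.64-fold in KO, with Zfp629 nearest (21.4 kb). Ube2b had 2 members in KO MEFs alone (3.80 and 4.72-fold), with Cdkn2aipnl nearest (46.0 and 44.9 kb). Each of these values comes from 1 library.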

How the data were processed

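Pol II and H2Bub1 were measured by ChIP-seq in WT and KO mESCs and MEFs, with 1 library per group. Of 16 samples in the labels, the 8 with peak lists were used, and 8 (inputs and Pol II phosphorylated at serine 2) were not analysed here. According to the submitters' processing notes, reads were demultiplexed with bcl2fastq 2.17.1.14, aligned to mm10 with Bowtie 1.0.0 and peaks were called with MACS2 2.1.1.20160309 in each library, narrow for Pol II and broad for H2Bub1. Pol II was scaled by the authors to mapped reads, and H2Bub1 with DESeq2 size factors over intergenic regions. The control, the thresholds and the way the scaling entered the calls are not given in the sources used here. Fold, as deposited, is the ratio of pileup to local background on a linear scale. The authors also deposited the -log10 p and -log10 q of each peak and the offset of the summit. Depth is unknown, and a deeper library gives more peaks at the same threshold.

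Coordinates were made 1-based and set against GENCODE M21 (GRCm38). Promoters reached 1000 bp from the TSS of the gene record, overlap was 1 bp, and percentages have exact Clopper-Pearson and medians exact binomial intervals at 95%. Motifs were searched on both strands in 300 bases around summits and in all 2729005 consecutive windows of that length in distal autosomal sequence. The members, gene lists and tests were chosen with earlier results of these data known. Regions were named by the 3 highest folds per pattern of libraries (lowest fold over the libraries of the pattern), genes by the 5 nearest to most regions per cell type and by the listed genes with members within 100 kb. Alternatives were equal peak numbers per pair, distances of 5 and 20 kb, protein-coding records only, -log10 q from 3 upwards, single-copy summits and an overlap of 50%. The functions were tested on simulated peaks. Scripts ran in Python 3.11.15 with numba 0.67.0, scipy 1.17.1, numpy 2.4.6, matplotlib 3.10.9 and pandas 2.3.3.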

Additional observations from a re-analysis of the deposited data

Results flagged for a closer look

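The rule took autosomes only, and the X chromosome held further Pol II peaks with a summit at least 10 kb from every gene record: 4 and 10 in WT and KO mESCs, and 49 and 26 in WT and KO MEFs, of 146, 330, 974 and 677 Pol II peaks on that chromosome. They were seen in data that no comparison above used. The strongest had 17.3-fold in WT MEFs and 12.5-fold in KO MEFs.

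At shared distal peaks, the median log2 of KO over WT fold had opposite signs in the 2 cell types, 0.021 in mESCs and -0.29 in MEFs. The difference was not tested, since each group had 1 library, and the interval of the mESC value included 0. The mESC value turned to -0.089 (-0.154 to -0.0085) at equal numbers of peaks and to -0.015 (-0.0975 to 0.1) at -log10 q of at least 3, where both cell types had the same sign.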

How the results depend on the processing

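The 7 alternatives gave 158 values of 24 results, of which 115 stayed within the interval of the value reported, or within 1.5 times it for ratios of counts, 42 moved beyond it and 1 reversed. No paired analysis was possible because each group had 1 library. With equal numbers of peaks per pair the ratio of distal peaks in KO over WT mESCs reversed to 1.09, the shared percentages between genotypes became 41.5% and 45.8% for mESCs and 29.7% and 54.9% for MEFs (WT, then KO), H2Bub1 in WT mESCs 35.8%, promoter Pol II of nearest genes in WT mESCs 52.1%, median fold 4.01 in WT mESCs and 4.33 in WT MEFs, and the log2 ratio in mESCs -0.089. At -log10 q of at least 3, H2Bub1 shares were 7.13%, 26.9%, 0% and 5.31% and the fold of WT mESCs 3.73. At 20 kb, 48.8% of KO mESC and 19.5% of WT MEF members were shared between genotypes, and 3.44% of WT MEF members between cell types. At 5 kb, sharing between genotypes was 28.0% in WT and 65.7% in KO MEFs, between cell types 17.6% in WT mESCs, and promoter Pol II 73.4% in WT MEFs. With protein-coding records only, sharing between cell types was 19.6% (WT mESCs), 19.6% (KO mESCs), 8.33% (WT MEFs) and 10.7% (KO MEFs), between genotypes 30.3% (WT MEFs) and 65.8% (KO MEFs), H2Bub1 34.1%, 64.5%, 2.33% and 26.6%, and promoter Pol II in KO MEFs 68.6%. With 50% overlap, sharing between genotypes was 23.4%, 46.7%, 17.9% and 55.3%, between cell types 2.63% in WT and 3.15% in KO MEFs, H2Bub1 20.2% (WT mESCs), 50.2% (KO mESCs) and 9.46% (KO MEFs), and the log2 ratio in MEFs -0.15. Without summits of repeated sequence all 24 stayed. The cause was not tested, apart from the fewer peaks that the stricter settings leave. Depth is unknown, so a missing peak is not evidence of absent Pol II.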
